A study of Macaca mulatta with 12 samples.

Results

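EGR1, EGR2, EGR3 and EGR4 encode zinc-finger transcription factors, and NR4A1, NR4A2 and NR4A3 encode orphan nuclear receptors. Both families belong to the immediate early genes, whose transcription starts within minutes of a stimulus and needs no new protein. In neurons, firing and calcium entry induce them through factors such as SRF and CREB, and their transcripts in the visual pathway have long served as markers of recent activity. They were measured here in single layers of the lateral geniculate nucleus (LGN), the thalamic relay from retina to visual cortex, in which every layer receives input from 1 eye.

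The members were all non-control probe sets of the array table whose annotated symbol was exactly 1 of these 7 names. The rule found 14 of 22215 probe sets, 5 of the EGR and 9 of the NR4A family, and it used no measured value. They covered 6 of the 7 genes, of 11963 genes that the array's single-gene probe sets name: EGR1 and EGR4 had 2 probe sets each, EGR3 had 1, and NR4A1, NR4A2 and NR4A3 had 3 each. EGR2 was not matched to a probe set and was not analysed here.

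The samples were total RNA from the LGN of rhesus macaques (Macaca mulatta) in which 1 eye had been deprived, with 1 array for each of 6 layers in each hemisphere, 12 arrays in all. In the ipsilateral LGN the deprived eye drives layers 2, 3 and 5, and contralaterally it drives layers 1, 4 and 6, so each layer was sampled once in each state (6 deprived, 6 non-deprived). By cell type, layers 1 and 2 are magnocellular (4 samples) and layers 3 to 6 parvocellular (8 samples), which is taken from LGN anatomy and not from the labels. The labels name no untreated animal, so the controls are layers driven by the other eye. The labels do not state age, how long deprivation lasted, how many animals there were, or which arrays came from 1 animal. If samples share an animal, the p-values below overstate the evidence about animals, and the spread between samples may be partly technical.

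The values are scaled intensities on a linear scale from an array designed for human transcripts. A macaque transcript can bind weakly where the sequences differ, so group differences were tested within a probe set. The filter on low values, the percentiles of mean signal and the summed intensities of lists do set different probe sets side by side. Bright probe sets weigh most in the sums. The median intensity of the arrays ran from 411.5 to 666.5. The deprived ipsilateral layer 2 had the lowest mean correlation with the other arrays (0.868, the others 0.897 to 0.934). GAPDH control probes at the 3' end over those at the 5' end, a ratio that increases with RNA breakdown, gave 9.38 there, 11 in deprived ipsilateral layer 5, and from 2.21 up to 5.65 elsewhere. Of 10 thalamic relay neuron markers with a probe set, 7 passed the filter on low values and LHX2, PRKCD and GBX2 did not. The highest percentiles of mean signal were those of TCF7L2, a thalamic transcription factor (59388 to 79019), and SLC17A6, the vesicular glutamate transporter VGLUT2 (24556 to 42638). The lowest of the 7 was SLC17A7, the transporter VGLUT1 (190 to 3684, percentile 63.1). In layer samples of mixed cells, fewer cells of a type and less RNA per cell cannot be told apart.

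Probe sets with a mean log2 intensity at or above the median of all probe sets were tested, and 5 of the 14 members passed this filter, which ignores the groups. They were 1 probe set each of EGR1 (201694_s_at), EGR3 (206115_at) and EGR4 (207767_s_at) and 2 of NR4A2 (216248_s_at and 204622_x_at). The other 9, among them every probe set of NR4A1 and NR4A3, had geometric mean intensities of 125.6 to 418.5 against a filter at 483.4. Several lay at or under the floor of 110.8 to which low values were raised: 11 of 12 arrays for NR4A2 204621_s_at, 9 for NR4A3 207978_s_at and 6 for EGR4 207768_at. The results therefore rest on 4 genes, and those of the other probe sets are given as values of dim signals.

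The first result concerned cell class. EGR1, a zinc-finger factor widely used as an activity marker, was lower in the magnocellular than in the parvocellular layers. Its intensity in the magnocellular samples was 1720 and 1832 in layer 1 and 1078 and 1340 in layer 2. In the parvocellular samples it was 4202 and 2298 in layer 3, 3410 and 3210 in layer 4, 3388 and 3846 in layer 5, and 3697 and 2353 in layer 6, with the deprived sample first. The highest magnocellular value lay below the lowest parvocellular value, so the classes did not overlap.

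The means were 1493 ± 347.5 (SD, n = 4) in magnocellular and 3301 ± 675.9 (n = 8) in parvocellular layers, a 2.21-fold difference. The log2 change, magnocellular minus parvocellular, was -1.15 ± 0.20 (SE, limma, 95% interval -1.58 to -0.72, adjusted p = 0.015). EGR1 ranked 24 of 11105 probe sets by p in this comparison. Of all probe sets tested, 80 (0.720%) passed the threshold of adjusted p under 0.05, 47 of them (0.423%) as lower in magnocellular layers, and 167 (1.50%) had classes that did not overlap. EGR1 was the 1 member called, of 5 tested. The difference was -1.24 within the ipsilateral and -1.05 within the contralateral hemisphere, and -1.38 among deprived and -0.91 among non-deprived samples. The two-sided exact permutation test over samples, which ignores the other terms, gave p = 0.00404, 1 of 15 such tests of the members past the filter, unadjusted. That is the smallest p that 4 against 8 samples can give, and it follows from the classes not overlapping, so it adds no separate evidence.

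The size of the EGR1 difference held more firmly than its call. It lay between -1.31 and -0.93 when each array was left out in turn. The call was lost without the deprived layer 1 (adjusted p = 0.0605), the deprived layer 2 (-0.93, adjusted p = 0.0638) or the non-deprived layer 2 (adjusted p = 0.0671, limma). It was also lost without both arrays of highest GAPDH ratio, after median centring and without the filter. For ACTB, the other control with probes at both ends, the 3' over 5' ratio ran from 29.8 to 62.9 in magnocellular and from 17 to 43.9 in parvocellular samples. With that ratio as a covariate, an alternative chosen after the data were seen, the change was -1.12 ± 0.35 (limma adjusted p = 0.898).

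EGR3, which is induced by neuronal activity and acts on many of the same sites as EGR1, had a change of -0.81 ± 0.23 between the classes and did not pass (limma adjusted p = 0.135). Its intensity ran from 348.4 to 763.9 in magnocellular samples and from 424.8 to 1460 in parvocellular samples, and the classes overlapped. EGR4, another activity-induced member of the family, had -0.05 ± 0.27. The nuclear receptor NR4A2, also called NURR1 and known for its role in dopamine neurons, had -0.21 ± 0.37 and -0.18 ± 0.35 at its probe sets past the filter. The 95% intervals of the EGR4 and NR4A2 values together reached from -0.98 to 0.56, so differences of that size in either direction were within the error. Only EGR1 passed, and whether its class difference exceeds that of the other members was not tested. The dim second EGR1 probe set, 201693_s_at, had -0.31 ± 0.53 (fit without the filter). Its class difference was 0.41 within the ipsilateral and -1.03 within the contralateral hemisphere. The EGR1 probe sets did not move together. They had a Pearson r of -0.20 and a Spearman rho of -0.07 over the 12 arrays, and -0.80 and -0.83 over the 8 parvocellular arrays.

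**Figure D1:**
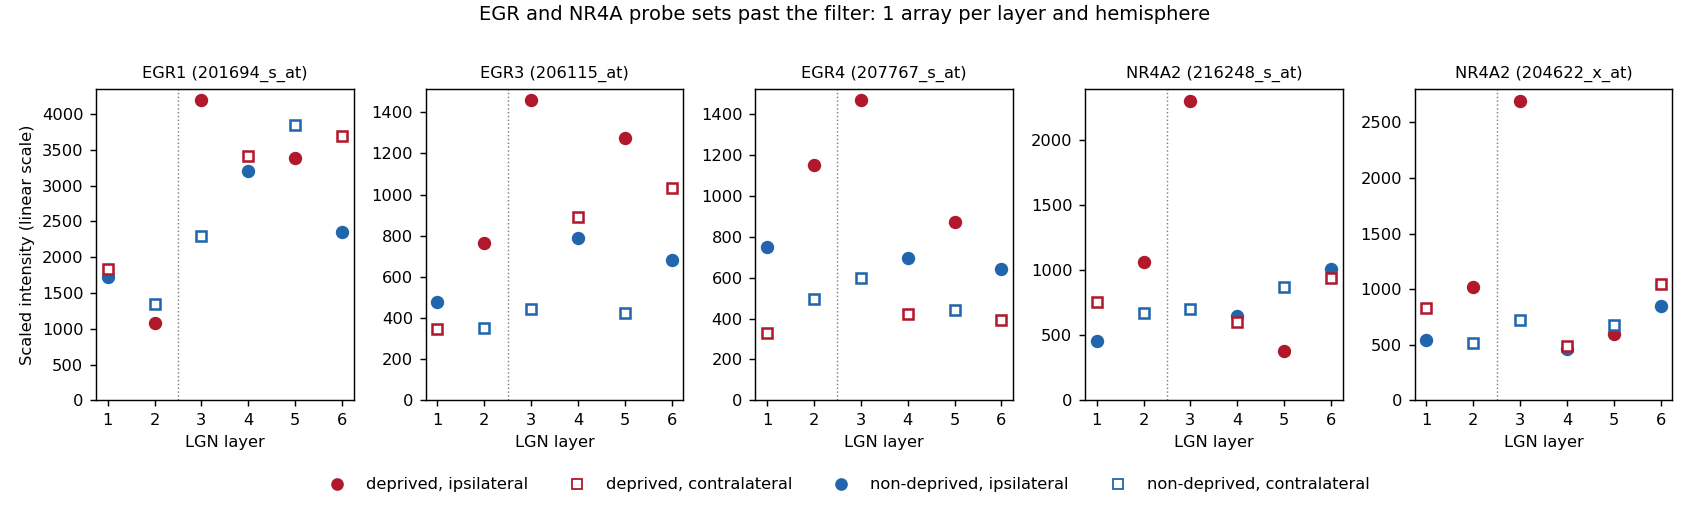
Scaled intensity (linear axis from 0) of the 5 EGR and NR4A probe sets past the filter, by LGN layer, 1 point per array; red is deprived, blue non-deprived, filled circles ipsilateral and open squares contralateral, and the dotted line divides magnocellular layers 1 and 2 from parvocellular layers 3 to 6. For EGR1 all 4 magnocellular points lie at or below 1832 and all 8 parvocellular points at or above 2298, and for all 5 probe sets the highest point is the deprived ipsilateral layer 3.

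The second comparison asked whether layers driven by the deprived eye differed from layers driven by the other eye. No member passed, against 7 of 11105 probe sets called (0.0630%) and 1332 (12%) at an unadjusted p under 0.05. Of the 5 members past the filter, all 5 had a positive change, where 53.7% of all probe sets did, and 1 had an unadjusted p under 0.05. These 5 are not independent, since 2 of them name NR4A2. Without the deprived ipsilateral layer 3, EGR4 (-0.00) and NR4A2 216248_s_at (-0.02) were no longer positive. EGR1 (0.13), EGR3 (0.76) and NR4A2 204622_x_at (0.31) stayed positive. The 95% interval of the EGR1 change ran from -0.21 to 0.61. Groups that did not overlap were found for 76 of all probe sets (0.684%) and for 0 members.

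EGR3 had the smallest p of the members. Its intensity in the deprived and the non-deprived sample was 348.4 and 476.1 in layer 1, 763.9 and 351.1 in layer 2, and 1460 and 445.6 in layer 3. It was 892.5 and 788.4 in layer 4, 1273 and 424.8 in layer 5, and 1030 and 679.7 in layer 6. The deprived sample was the higher in 5 of 6 layers and the lower in layer 1, and the groups of 6 overlapped. The mean was 961.3 ± 392.5 (SD, n = 6) in deprived and 527.6 ± 168.7 (n = 6) in non-deprived layers, with a log2 change of 0.79 ± 0.21 (1.73-fold, limma adjusted p = 0.166). EGR3 ranked 127 of 11105 probe sets by p. The exact permutation test gave p = 0.0584.

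Within each hemisphere the EGR3 difference was 0.83 ipsilaterally and 0.76 contralaterally. Each layer had only 1 state within a hemisphere, so deprivation and the layers compared cannot be told apart there. The EGR3 hemisphere difference was 0.68 ± 0.21 (ipsilateral higher, limma adjusted p = 0.13), and 0.36 after median centring and 0.40 with quantile normalization. In parvocellular layers alone, the 4 deprived samples (892.5 to 1460) all lay above the 4 non-deprived samples (424.8 to 788.4). The change there was 1.02 ± 0.22 (limma adjusted p = 0.34), and the exact permutation p of 0.0286 is the smallest that 4 against 4 samples can give. Of all probe sets, 359 (3.23%) had parvocellular groups that did not overlap, 223 of them (2.01%) with deprived higher. In the magnocellular layers the difference of means was 0.34, and the term for a class-dependent deprivation change was -0.68 ± 0.44 (limma adjusted p = 0.672). An effect that differs between the classes was therefore not shown. The EGR3 change stayed between 0.65 and 1.02 in all 25 other settings tried, and passed in none (adjusted p from 0.132 to 0.365).

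EGR1 itself had a change with deprivation of 0.20 ± 0.19 (limma adjusted p = 0.737), with the deprived sample higher in 4 of 6 layers. In parvocellular layers its mean was 3674 ± 379.2 in deprived and 2927 ± 741.4 in non-deprived samples (SD, n = 4 each), and the groups overlapped. EGR4 had 0.15 ± 0.26 (limma adjusted p = 0.869), with the deprived sample higher in the 3 layers whose deprived sample was ipsilateral and lower in the other 3. Its difference was 0.71 within the ipsilateral and -0.42 within the contralateral hemisphere.

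The EGR4 values followed the hemisphere. Ipsilaterally they were 748.4, 1153, 1469, 696.9, 873.5 and 643.2 in layers 1 to 6. Contralaterally they were 327.1, 497.3, 598.8, 422.7, 441.3 and 395. The hemispheres did not overlap, as for 143 of all probe sets (1.29%), 96 of them (0.864%) with ipsilateral higher. The change was 1.02 ± 0.26, ipsilateral minus contralateral (limma adjusted p = 0.104), against 12 of 11105 probe sets called (0.108%) and 2234 (20.1%) at an unadjusted p under 0.05. It passed only without the non-deprived layer 6 (1.12 ± 0.26, limma adjusted p = 0.0294). In that fit 851 of all probe sets were called for hemisphere, so the pass was shared with many and is not particular to EGR4. The EGR4 change was 1.38 with the ACTB ratio as a covariate and 0.70 after median centring. The array medians themselves ran from 459.5 to 666.5 ipsilaterally and from 411.5 to 529.1 contralaterally. The EGR4 values and these medians had a Pearson r of 0.77 and a Spearman rho of 0.73 over the 12 arrays. For EGR3 these were 0.71 and 0.76, and for EGR1 0.11 and 0.08. With the 3' over 5' ratios EGR1 had a Pearson r of -0.66 and a Spearman rho of -0.64 for ACTB, and -0.35 and -0.53 for GAPDH. The part of the array median in the EGR4 and EGR3 values was not tested beyond the median-centred fits.

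**Figure D2:**
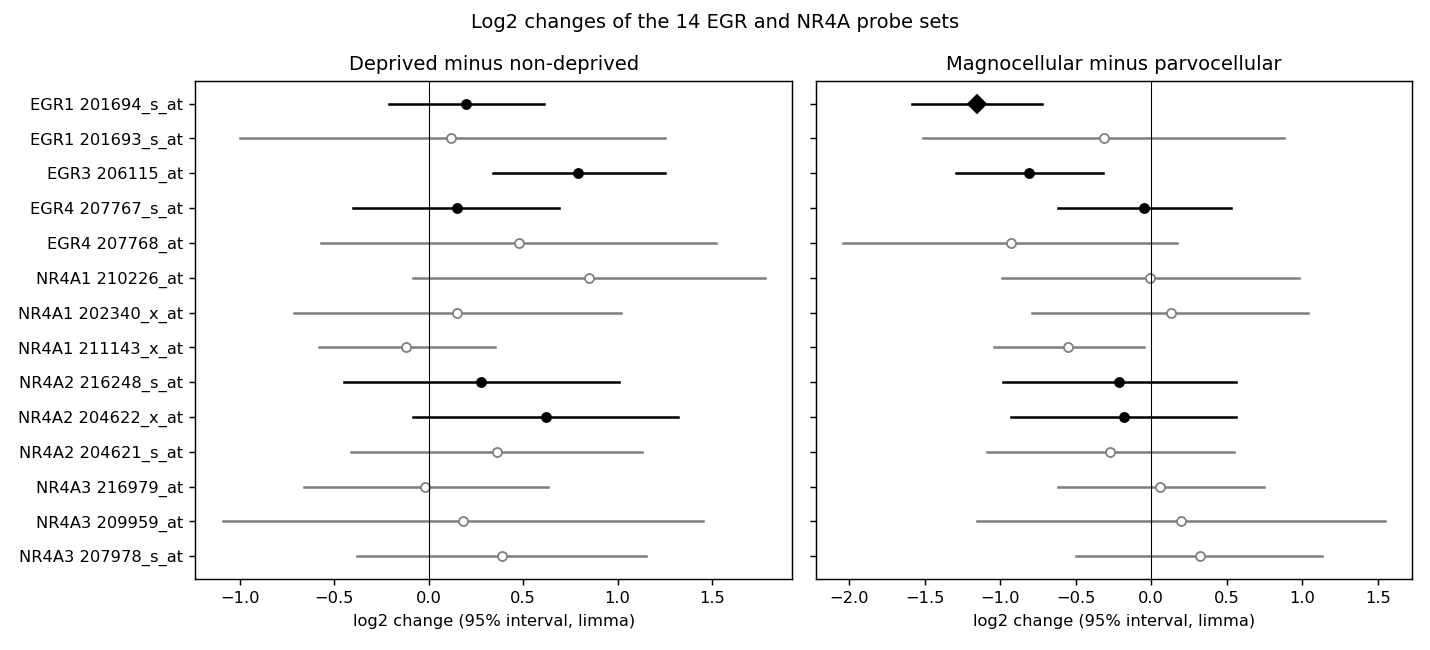
Log2 changes (points) with 95% intervals from limma (lines) for the 14 EGR and NR4A probe sets, deprived minus non-deprived on the left and magnocellular minus parvocellular on the right; black probe sets passed the filter, grey open ones did not and come from the fit without it, and the diamond marks adjusted p under 0.05. EGR1 201694_s_at at -1.15 is the 1 diamond, and the interval of EGR3 with deprivation runs from 0.34 to 1.25.

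NR4A2 had changes with deprivation of 0.28 ± 0.34 (216248_s_at, limma adjusted p = 0.804) and 0.62 ± 0.33 (204622_x_at, adjusted p = 0.484). Both probe sets name the same gene, and over the 12 arrays they had a Pearson r of 0.88 and a Spearman rho of 0.84. A single array stood out in them. The deprived ipsilateral layer 3 reached 2297 and 2693, while the other 5 deprived samples ran from 378.8 to 1065 and from 487.4 to 1044, and the non-deprived samples from 457.5 to 1010 and from 460.5 to 844. The third, dim probe set reached 497.1 on that array and at most 101.4 on the other 11, below the floor. Without that array the deprivation changes were -0.02 ± 0.30 and 0.31 ± 0.28 (limma adjusted p = 0.985 and 0.705). Without the deprived layer 5 they were 0.59 and 0.82 (adjusted p = 0.432 and 0.313), and with the GAPDH ratio as a covariate 0.58 and 0.90 (adjusted p = 0.486 and 0.227), so neither probe set passed in these fits.

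The deprived ipsilateral layer 3 was also the highest of the 12 arrays for EGR1, EGR3 and EGR4. All 5 members past the filter, and 8 of the 14 members, had their highest value there. Of the 11105 probe sets tested, 927 (8.35%) did, and of all 22215 non-control probe sets 8.15%. This pattern was noticed after the values were seen, the 2 NR4A2 probe sets share a transcript, and it describes 1 sample with no replicate. Its median intensity (598.7) and its GAPDH ratio (2.87) lay within the range of the other arrays. All 14 members had their highest value on some ipsilateral array, as did 75.7% of all non-control probe sets. Of 36 other activity-regulated genes tested, 4 had their highest value on that array. Without it, the EGR1 class difference was -1.09 ± 0.21 (limma adjusted p = 0.0315) and the EGR3 deprivation change 0.76 ± 0.24 (adjusted p = 0.272).

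**Figure D3:**
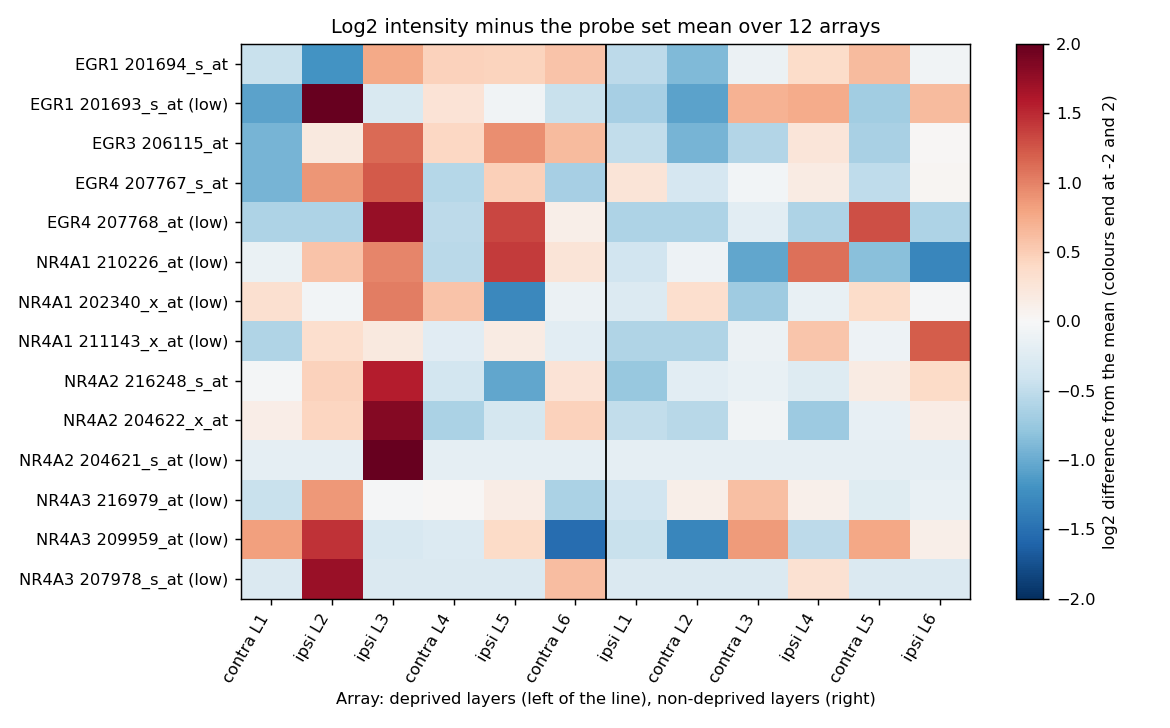
Log2 intensity of each of the 14 EGR and NR4A probe sets minus its own mean over the 12 arrays, with values below 110.8 raised to it; rows are probe sets (low marks those below the filter), columns are arrays with deprived layers on the left, and red is above and blue below the mean. The third column, the deprived ipsilateral layer 3, is the highest in 8 of 14 rows, and the second, the deprived ipsilateral layer 2, in 4 rows, of which 3 are NR4A3; that array was the highest for 29.3% of all probe sets.

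NR4A1, also called NUR77, and NR4A3, also called NOR1, gave only dim signals. NR4A1 210226_at ran from 169.8 to 1106 and had a deprivation change of 0.85 ± 0.41 in the fit without the filter (limma adjusted p = 0.608). The deprived sample was higher in 5 of 6 layers, and in layer 4 the order was opposite (287.6 deprived and 894.3 non-deprived). Its other probe sets had 0.15 ± 0.38 and -0.12 ± 0.21. The NR4A1 probe sets therefore did not move together.

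NR4A3 209959_at was 630.5 and 970.9 in the deprived magnocellular samples of layers 1 and 2, and 262.2 and 144.8 in the non-deprived ones. In parvocellular layers it ran from 123.4 to 464.2 in deprived and from 246.5 to 640.8 in non-deprived samples. Its interaction of deprivation with cell class was 2.74 ± 0.84 in the fit without the filter (limma adjusted p = 0.631). That rests on 4 magnocellular samples and did not pass. The other NR4A3 probe sets had interactions of 0.54 ± 0.61 and 0.93 ± 0.69. In the main fit no probe set passed for the interaction (0% of 11105), and 969 (8.73%) had an unadjusted p under 0.05.

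The members were then set beside genes that act with them, with 1 probe set per gene. Of 54 other activity-regulated genes listed, 36 were tested, and 23 had positive changes with deprivation (median 0.10, against 0.02 over 7285 genes). KLF4, a zinc-finger factor, was the 1 that rose (1.03 ± 0.17, limma adjusted p = 0.0287), and the next by p was ZFP36L1, which promotes decay of AU-rich transcripts (0.74 ± 0.25, adjusted p = 0.249). Over all 7285 genes, 5 were called higher and 1 lower with deprivation, and after median centring 0 probe sets were called. The list was chosen with earlier results of these data known, so its called genes are not independent of them. Between classes 24 of the 36 had negative values (median -0.17, against -0.06 over all genes). DUSP5, a phosphatase that inactivates ERK, was lower in magnocellular layers (-1.60 ± 0.31, adjusted p = 0.0208), and DUSP6, another ERK phosphatase, was higher (1.20 ± 0.22, adjusted p = 0.0183). The listed genes that passed thus lay in both directions. Over all 7285 genes, 26 were called higher and 28 lower in magnocellular layers.

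Of 17 listed factors and coactivators that act on immediate early gene promoters, 13 were tested and 0 passed with deprivation or class. The smallest p with deprivation were those of MRTFB, an SRF coactivator (0.57 ± 0.17, limma adjusted p = 0.207), and CREBBP, a CREB coactivator (0.41 ± 0.17, adjusted p = 0.353). Between classes they were those of MEF2A (-0.38 ± 0.18, adjusted p = 0.329) and SRF (-0.37 ± 0.32, adjusted p = 0.635). NAB1, a corepressor that binds EGR proteins, had 0.13 ± 0.22 with deprivation and 0.27 ± 0.23 between classes. RXRB, a retinoid X receptor of the kind that pairs with NR4A1 and NR4A2, had -0.22 ± 0.18 and -0.15 ± 0.19, and RXRA -0.05 ± 0.23 and -0.19 ± 0.24. None of these 3 passed (limma adjusted p from 0.621 to 0.958).

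**Figure D4:**
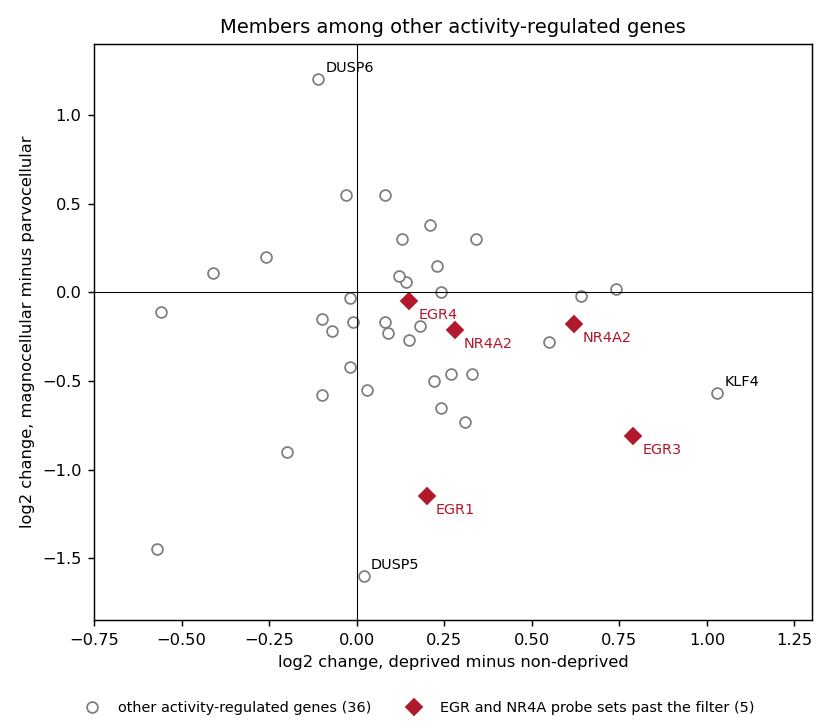
Log2 change with deprivation (horizontal axis) against log2 change between classes (vertical axis) for the 5 EGR and NR4A probe sets past the filter (red diamonds) and 36 other activity-regulated genes (grey circles), with the genes past the threshold in either comparison named among the circles. EGR1 and EGR3 lie at the lower right, at -1.15 and -0.81 between classes, and DUSP6 lies at the top at 1.20.

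Among themselves the members past the filter were loosely related. EGR1 and EGR3 had a Pearson r of 0.56 and a Spearman rho of 0.57 over the 12 arrays (0.52 and 0.43 over the 8 parvocellular arrays). EGR1 and EGR4 had -0.05 and -0.08, and EGR3 and EGR4 0.56 and 0.48. The arrays share layers, hemispheres and possibly animals, so these values are descriptions.

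By the rule for likeness, the genes whose log2 values followed a member most closely over the 12 arrays were searched among 9838 probe sets. For EGR1 they were PLAT, the tissue plasminogen activator (r = 0.95, rho = 0.94), DTNA, dystrobrevin alpha (r = 0.91, rho = 0.91), and MAG, the myelin-associated glycoprotein (r = 0.89, rho = 0.80). For EGR3 they were FA2H, the fatty acid hydroxylase of myelin lipids (r = 0.97, rho = 0.95), MICAL2 (r = 0.92, rho = 0.96) and IGFLR1 (r = 0.92, rho = 0.94). EGR4 was followed by NECAB2, NSD2 and MUC3A (r = 0.93 to 0.95), and NR4A2 by PLAAT3, FN1 and BACE1 (r = 0.82 to 0.86). For the dim NR4A1 they were SERPINA1, ATP1B2 and MED12 (r = 0.93 each), and for the dim NR4A3 MAP2, MARCHF6 and FZD10 (r = 0.85 to 0.89). The highest of so many values are large by selection.

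Of 12 listed markers of oligodendrocytes, the myelin-forming cells, 10 were tested. Between classes MAG (-1.26 ± 0.23, limma adjusted p = 0.018) and MBP (-0.64 ± 0.13, adjusted p = 0.0334) were lower in magnocellular layers, and the other 8 did not pass. Over all 7285 genes, 28 were called lower there. Negative values were found for 7 of 10 (median -0.48), against 4197 of 7285 genes (median -0.06). Their summed intensity ran from 65436 to 90090 in magnocellular and from 89653 to 155374 in parvocellular samples. With deprivation 10 of 10 had positive values (median 0.31), against 3869 of 7285 genes (median 0.02), and 0 passed, and the sum ran from 91167 to 155374 in deprived and from 89653 to 110097 in non-deprived parvocellular samples. MAG itself ran from 505.2 to 648.1 in magnocellular and from 822.9 to 2148 in parvocellular samples. Its classes did not overlap, as for EGR1 and as for 167 of all probe sets (1.50%). MAG was named above for its likeness to EGR1 over the same arrays, so a shared class split is favoured by that choice. Over the 8 parvocellular arrays the Pearson r of EGR1 and MAG was 0.68. The part of oligodendrocytes in the EGR1 and EGR3 values was not tested.

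**Figure D5:**
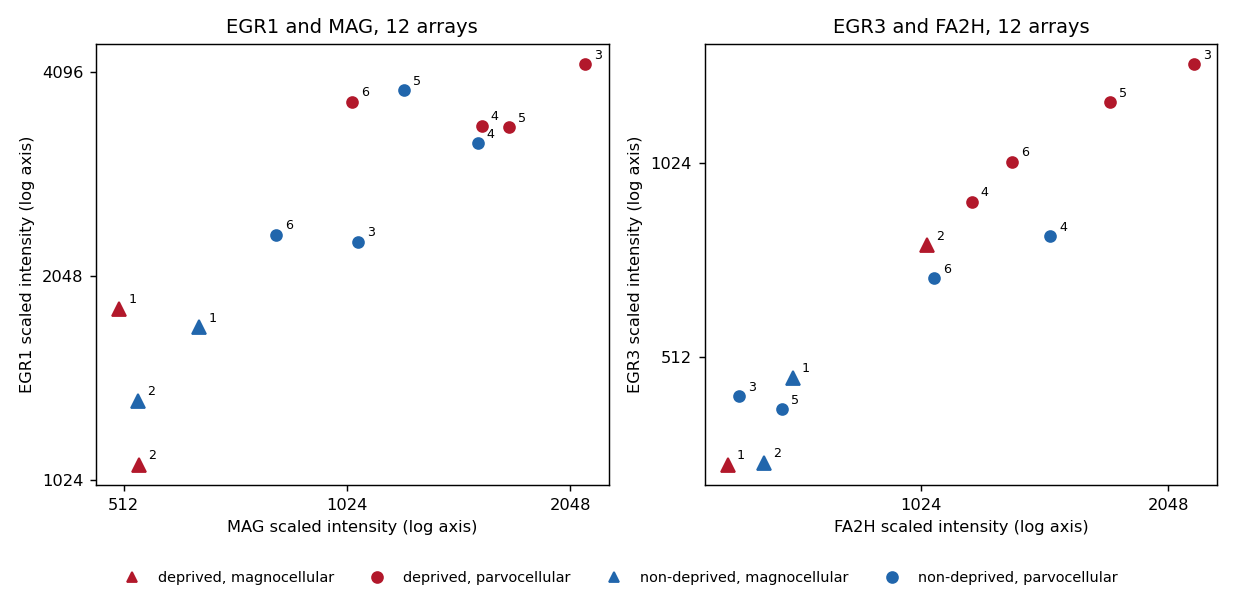
Scaled intensity of EGR1 against MAG (left) and of EGR3 against FA2H (right) on log axes, 1 point per array with its layer number; red is deprived, blue non-deprived, triangles magnocellular and circles parvocellular. EGR3 and FA2H lie near a line over all 12 arrays (r = 0.97), and for EGR1 and MAG the 4 magnocellular arrays fill the lower left corner.

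No marker of the other cell types passed with deprivation or class, and the lists were not tested against each other. Over all 7285 genes, 3869 were positive with deprivation and 4197 negative between classes. For relay neuron markers 4 of 7 tested were negative between classes (median -0.05) and 5 of 7 with deprivation (median -0.21). Their summed intensity ran from 107090 to 118283 in magnocellular and from 102326 to 116857 in parvocellular samples. Astrocyte markers were positive in 9 of 9 with deprivation (median 0.15) and in 6 of 9 between classes (median 0.06), with sums of 114448 to 184966 in magnocellular and 98124 to 150269 in parvocellular samples. Microglia markers, of which only 4 of 12 listed were tested, were positive in 4 of 4 with deprivation (median 0.27). Between classes 3 of the 4 were negative (median -0.23). Endothelial and mural markers had 7 of 9 positive (median 0.17) and 6 of 9 negative (median -0.17) with deprivation and between classes. GABA interneuron markers, of which only 5 of 14 listed were tested, had 4 of 5 positive in both comparisons (medians 0.42 and 0.12). Their summed intensity ran from 70911 to 103901 in magnocellular and from 53752 to 76010 in parvocellular samples, so the higher sums lay in the magnocellular layers with a small overlap. The part of these cells in the EGR1 class difference was not tested.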

How the data were processed

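The deposited table holds 1 intensity per probe set and array for 22283 probe sets, 68 of them controls. Per the labels, each array is 1 layer of 1 hemisphere; the software behind the deposited intensities is not given in the sources used here. After trimming 2% at each end, array means fell within 1500.45 to 1500.6, so the authors had scaled the intensities before deposit. The values were raised to the 20th percentile (110.8; 0.0683% of values tested) and put on the log2 scale. Of the non-control probe sets, 19065 named 1 gene, 1043 several and 2107 none; the 7 member symbols are also in the macaque gene tables. Controls and probe sets with a mean below the median were left out, which left 11105.

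Deprivation, cell class and hemisphere were additive terms in limma 3.58.1 (lmFit, eBayes with trend, under R 4.3.3). Tests were two-sided, p-values were adjusted by Benjamini-Hochberg over all probe sets tested, and 0.05 was the threshold. An interaction of deprivation with class was added in a second fit. Members below the filter come from a fit of all 22215 probe sets. The fit was tested on simulated data.

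Exact permutation tests compared mean log2 values. Lists used the probe set of highest mean per gene. Named were all members, list genes past the threshold, the 2 list genes of smallest p per pathway list and comparison, and the 3 genes most like each member. Members and lists were chosen with earlier results of these data known. Alternatives changed the terms, scaling, filter, floor, trend, RNA-quality covariate and arrays used. The number of arrays limits the precision.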

Additional observations from a re-analysis of the deposited data

Results flagged for a closer look

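Single arrays far from the rest of their group were looked for in 84 groups of 4 to 8 samples on the log2 scale, by the gap of the highest or lowest sample as a share of the group's range. The rule flags about 1 in 20 groups by chance where values are not floored, and 11 were found, 10 of them in dim probe sets. That rate does not hold for floored values. Where 1 sample alone lies above the floor its gap is 1 by construction, as for every gap of 1 below. The groups also share arrays, so the flags are not independent. NR4A2 204622_x_at in the deprived ipsilateral layer 3 (2693) had a gap of 0.536 of the range of the parvocellular samples. The dim NR4A2 204621_s_at had a gap of 1 on the same array (497) among deprived, parvocellular and ipsilateral samples, since all its other values were at the floor. The deprived ipsilateral layer 2, the array with the lowest correlation with the others, was the highest magnocellular sample for EGR1 201693_s_at (924, gap 0.865), NR4A1 211143_x_at (211, gap 1) and NR4A3 207978_s_at (450, gap 1, and 0.702 among ipsilateral samples). NR4A3 207978_s_at also had gaps of 1 in the non-deprived ipsilateral layer 4 (168) and the deprived contralateral layer 6 (208). EGR4 207768_at had a gap of 0.787 in the non-deprived contralateral layer 5 (415).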

How the results depend on the processing

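The EGR1 class difference kept its sign in all 23 other settings and its call in 16; the number of members called for class went from 1 to 0 after median centring (EGR1 -1.06, adjusted p = 0.104), without the filter (adjusted p = 0.0933), without the 2 arrays of highest GAPDH ratio (-0.94, adjusted p = 0.0629) and with the ACTB ratio, and ranged from 0 to 1 without single arrays. For hemisphere it ranged from 0 to 1, and for deprivation and the interaction it was 0 throughout. The count of all probe sets with deprivation was 7, and 3 with the layer number as a replicate block or without the 2 arrays, 0 without the cell class term or after median centring, 2 with quantile normalization, 1 with no filter, no trend or the GAPDH ratio as covariate, 13 with the higher floor (40th percentile), 4 in parvocellular layers alone, and 0 to 43 without single arrays. For class it was 80, and 49 with quantile normalization, 31 with median centring, 24 without the filter, 41 without a trend, 26 without the 2 arrays, 4 with the ACTB ratio, and 17 to 188 without single arrays. For hemisphere it was 12, and 2 without the class term, 3 with quantile normalization, 30 with median centring, 25 with the higher floor, 0 with no filter, no trend or either ratio, without the 2 arrays or in parvocellular layers alone, and 0 to 851 without single arrays. For the interaction it was 0, 5 without the filter, and 0 to 208 as single arrays were dropped (the highest when deprived layer 1 was). Median centring moved the median change of all probe sets to -0.11 with deprivation and -0.25 by hemisphere, from 0.03 and 0.07.

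Signs reversed only in values that had not passed. For class these were NR4A2 204622_x_at with the GAPDH (0.12) or ACTB ratio (0.70), NR4A2 216248_s_at with the same ratios (0.11 and 0.19), and EGR4 with quantile normalization (0.07), median centring (0.04) or the ACTB ratio (0.49). For hemisphere they were EGR1 with the GAPDH ratio (0.09) or without the 2 arrays (0.11), NR4A2 204622_x_at with median centring (-0.04), and NR4A2 216248_s_at with quantile normalization (-0.13) or median centring (-0.20); for the interaction, EGR4 with the ACTB ratio (0.25). Without single arrays the ranges that crossed 0 were, with deprivation, -0.00 to 0.28 for EGR4 and -0.02 to 0.59 for NR4A2 216248_s_at. For class they were -0.34 to 0.05 (NR4A2 204622_x_at), -0.19 to 0.15 (EGR4) and -0.44 to 0.02 (NR4A2 216248_s_at). For hemisphere they were -0.18 to 0.07 (EGR1), -0.03 to 0.49 (NR4A2 204622_x_at) and -0.19 to 0.42 (NR4A2 216248_s_at), and for the interaction -0.04 to 0.78 (NR4A2 204622_x_at) and -0.68 to 0.27 (EGR4). The causes were not tested. Whether layer numbers pair the samples was not settled. The correlation of same-layer deviations from the means of the deprived and non-deprived groups ran from -0.25 to 0.00. The 2 samples of a layer always came from opposite hemispheres. Hemisphere and class differences stayed in the deviations, so the correlations cannot decide the question. The replicate block, which gives no class value, left the EGR3 deprivation change at 0.79 ± 0.25 (limma adjusted p = 0.263).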
